A study of Mus musculus with 19 samples.

Results

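The 9 genes described here encode 5 secreted antagonists of bone morphogenetic protein (BMP) signalling (Grem1, Nog, Chrd, Fst and Sostdc1), 3 BMP ligands (Bmp2, Bmp4 and Bmp7) and 1 membrane pseudoreceptor (Bambi), among the 23284 genes of each expression table. The list was led by Grem1, which was selected on its fall from fibroblasts to prostate, among the largest of all genes, so the differences of the 9 genes between prostate and fibroblasts are given as a description with no test. RNA-seq profiles were available for 6 samples of mouse embryonic fibroblasts (MEFs), 6 samples of wild-type prostate and 7 renal grafts. The MEFs were grown from limbs of E13.5 embryos, carry the genotype label Nkx3-1tm2(LacZ)Mms /+ and the strain label C57BL/6, and per the study's methods came from pooled male and female littermates and were sorted to remove cells positive for CD45, Ter119, CD31, Mac-1 or EpCAM. The prostates were taken from C57BL/6 mice at 6 weeks of age. The grafts grew for 6 weeks under the kidney capsule of nude mice that carried testosterone pellets, and joined rat urogenital mesenchyme with iEpt cells, which are MEFs turned epithelial by retroviral human OCT4, SOX2, KLF4 and c-MYC. For 5 grafts, FS002, FS003 and FS005 together with FS007 and FS008, the study lists the cells as iEpt+NAF, that is with a lentiviral set of prostate regulators that holds mouse Nkx3.1 and mouse Foxa1. The sample labels do not divide the grafts, and FS022 and FS023, which that list does not hold, would be iEpt grafts without NAF only by elimination. These last grafts stand in an expression table of their own and are reported as values without a test. All values are for mouse genes, and the share of reads that came from the rat stroma or from the host kidney was not measured.

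BMPs are secreted ligands of the TGF-beta superfamily that bind type I and type II receptor kinases, which phosphorylate SMAD1, SMAD5 and SMAD9. Antagonists outside the cell bind the ligands and keep them from the receptors, and the ligands themselves often switch on the genes of their antagonists. In the urogenital sinus, Bmp4 and Bmp7 made by the mesenchyme restrain the budding and branching of prostatic ducts, and Noggin opposes Bmp4 during budding. In the limb, Gremlin1 keeps BMP activity low so that outgrowth continues, and Noggin and the BMPs pattern cartilage.

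Promoters of 3 of the 9 genes, Grem1, Chrd and Bmp4, were matched in RefSeq on GRCm38.p6, and are shown because no others were matched. Each sequence runs 5′ to 3′ on the strand of the gene, from 250 bases before to 50 bases after the annotated start. Capitals mark GGCGCC, a palindrome known as a binding element of the BMP SMADs. The Grem1 promoter lies at chr2:113758599-113758898 on the minus strand, the Chrd promoter at chr16:20732877-20733176 on the plus strand and the Bmp4 promoter at chr14:46390620-46390919 on the minus strand.
Grem1: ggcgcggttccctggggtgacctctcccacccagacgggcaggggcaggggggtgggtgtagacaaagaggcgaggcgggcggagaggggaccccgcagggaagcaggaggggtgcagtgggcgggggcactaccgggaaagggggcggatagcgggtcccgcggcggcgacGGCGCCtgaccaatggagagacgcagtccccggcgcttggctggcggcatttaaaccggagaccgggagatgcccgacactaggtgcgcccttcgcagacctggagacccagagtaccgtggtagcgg
Chrd: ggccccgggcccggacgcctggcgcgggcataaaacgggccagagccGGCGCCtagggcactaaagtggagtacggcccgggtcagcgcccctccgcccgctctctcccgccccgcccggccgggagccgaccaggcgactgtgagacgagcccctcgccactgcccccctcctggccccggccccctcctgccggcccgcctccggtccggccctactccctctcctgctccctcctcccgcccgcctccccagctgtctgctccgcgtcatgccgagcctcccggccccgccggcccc
Bmp4: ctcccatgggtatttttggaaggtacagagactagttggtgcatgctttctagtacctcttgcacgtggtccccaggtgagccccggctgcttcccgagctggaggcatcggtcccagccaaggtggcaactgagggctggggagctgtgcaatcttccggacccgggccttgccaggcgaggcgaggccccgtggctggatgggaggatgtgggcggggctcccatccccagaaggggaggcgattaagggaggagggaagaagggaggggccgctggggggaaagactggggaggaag
GGCGCC occurred 1 time in the Grem1 window, at position -78 from the start, 1 time in the Chrd window, at position -203, and 0 times in the Bmp4 window, and 11.9% of 32851 mouse promoters of the same length held it. The GC box GGGCGG, counted on both strands with overlapping matches included, occurred 3 times in the Grem1 window, 4 times in the Chrd window and 1 time in the Bmp4 window, and 35.7% of all promoters held it. The GC content was 70.7% for Grem1, 78.3% for Chrd and 64.0% for Bmp4, against a median of 52.7%. These matches describe the letters of the windows and no binding was measured.

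The libraries of the first table held an estimated 16767287 to 26152338 reads on genes, and those of FS022 and FS023 held 6629662 and 9662056. Values are the deposited log2 values, on which 3 reads stood at 1.68 to 2.34 in the first table and at 3.12 and 2.70 in FS022 and FS023, and values under this floor cannot be told from none. The floor covers counting error only. Low values are compressed on this scale, which shrinks differences of low genes. They also carry added scatter, with some values well under the estimated -0.31 of 0 reads, which can enlarge such differences. The size of a difference that rests on values under the floor is therefore not a bound in either direction. The labels do not say that samples of a group are separate cultures or animals, so p-values measure the spread between these samples. The 6 MEF samples fell into 3 close pairs (FS015 with FS020, FS016 with FS019, FS017 with FS018), whose log2 values differed with an SD of 0.0824 to 0.106, against 0.392 to 0.473 for the other 12 pairs of MEFs. The tests against MEFs below were therefore also run with the pairs averaged. Transcripts of the secreted prostate proteins probasin and spermine-binding protein, Pbsn and Sbp, reached 6.59 to 8.55 and 9.48 to 11.23 in MEFs FS015 to FS018, against 0.02 and 0.35 for Pbsn in FS019 and FS020, under the floor, and 1.99 and -1.61 for Sbp, of which 1.99 in FS019 is just above its floor of 1.88. Kidney transcripts were high in grafts FS002, FS005 and FS008, with 15.84, 17 and 16.64 for Kap, the kidney androgen-regulated protein, against 9.77 in FS003 and 12.34 in FS007. Grafts FS007 and FS008 stood apart from the other 3 iEpt+NAF grafts, with Pearson correlations over 10269 genes of 0.832 to 0.877 between these sets and 0.935 to 0.968 among FS002, FS003 and FS005.

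Levels were first compared between the 9 genes within each group, as estimated normalized reads per kb of exon, the scale on which genes of different length can be set side by side. In MEFs, Fst, Bmp4 and Grem1 stood highest, with medians of 889.2, 814.1 and 664.0 normalized reads per kb, and their ranges over the 6 samples overlapped. A gap without overlap separated them from Bambi (median 60.4), Nog (46.6) and Chrd (41.5), and Bmp2 (8.61), Sostdc1 (2.28) and Bmp7 (1.72) came last. In prostate the order was led by Bmp7 (median 330.5) and Fst (257.2), whose ranges overlapped, followed without overlap by Bmp4 (89.4) and then Bambi (37.7). Bmp2, Chrd and Sostdc1 had medians of 24.0, 22.3 and 15.9 in prostate with overlapping ranges, and Nog (1.97) and Grem1 (0.518) were lowest. In the 5 iEpt+NAF grafts each gene overlapped with its neighbour in the order, from Bmp4 (123.7), Sostdc1 (111.3), Fst (107.1) and Bmp7 (86.0) to Nog (63.2), Bambi (55.9), Chrd (46.7), Bmp2 (42.4) and Grem1 (7.13). Grem1 was therefore among the 3 highest of the 9 genes in MEFs and had the lowest median in prostate and in the iEpt+NAF grafts.

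**Figure D1:**
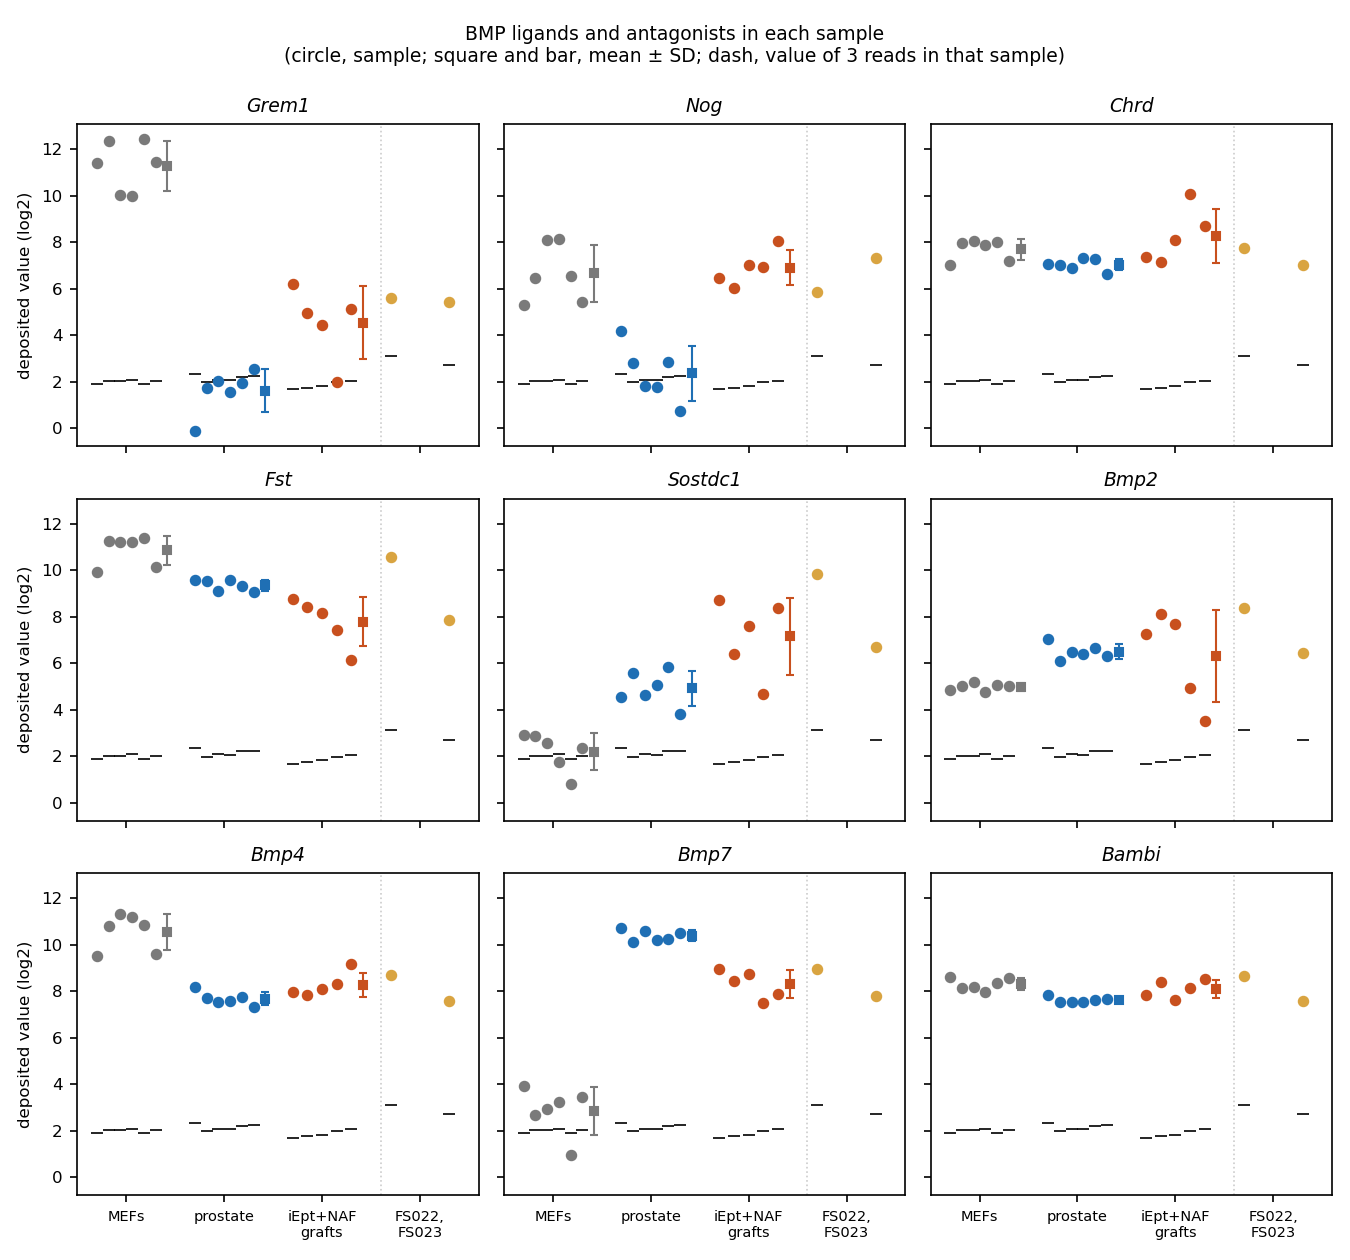
Deposited log2 value (y axis) of each of the 9 genes in every sample, by group (x axis). Circles are samples, squares with bars are group means ± SD, and short dashes mark the value of 3 reads in that sample. Grem1 lies between 9.99 and 12.44 in MEFs and between -0.14 and 2.55 in prostate, and Bmp7 shows the opposite order.

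Grem1 encodes Gremlin1, a secreted antagonist of the DAN family that binds BMP2, BMP4 and BMP7, and lies on chromosome 2 from 113586321 to 113598803 on the minus strand of mm9 (GENCODE M1). In MEFs its lowest, median and highest log2 values were 9.99, 11.43 and 12.44. The close pairs set this spread, with 9.99 and 10.05 in FS018 and FS017, 11.42 and 11.44 in FS015 and FS020, and 12.34 and 12.44 in FS016 and FS019. In prostate the lowest, median and highest values were -0.14, 1.83 and 2.55, and 5 of the 6 samples were under the value of 3 reads, so Grem1 was at the limit of detection there. The difference of the means, prostate minus MEFs, was -9.67 on the log2 scale. In the iEpt+NAF grafts Grem1 was 6.21 in FS002, 4.96 in FS003, 4.46 in FS005, 1.97 in FS007 and 5.11 in FS008, so 4 of the 5 grafts stood above every prostate sample and FS007, at its floor, stood among them. All 5 grafts stood below all MEFs. Grem1 was lower in the grafts than in MEFs by a log2 difference of -6.74 ± 0.72 (SE, limma adjusted p = 1.22e-05), and the exact two-sided permutation test over 5 grafts and 6 MEFs gave p = 0.004329, the smallest it can give. With the close MEF pairs averaged the difference was again -6.74 (limma adjusted p = 0.000825). The exact permutation p over 5 grafts and 3 pairs was then 0.03571, again the smallest it can give. Against prostate, Grem1 was higher in the grafts by 2.93 ± 0.75 (SE, limma adjusted p = 0.00647), with an exact permutation p = 0.01299 over 5 grafts and 6 prostates. Under quantile normalization this second difference was 1.03 and no longer passed (limma adjusted p = 0.246). The mean of Grem1 in these grafts therefore lay between those of the other groups. Because Grem1 was selected on the contrast of these same MEF and prostate samples, this place between them is a description. Its p-values against either group use samples that entered that selection, so they are not independent support. Its distance from prostate is limited by detection there, so the 2 distances cannot be ranked. Grem1 was 5.59 in FS022 and 5.45 in FS023, within the range of the iEpt+NAF grafts.

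Nog encodes Noggin, a secreted dimer that covers the receptor-binding surfaces of BMPs, and is a gene of 1 exon on chromosome 11 from 89161952 to 89163873 on the minus strand. Its lowest, median and highest log2 values were 5.30, 6.51 and 8.13 in MEFs and 0.76, 2.31 and 4.20 in prostate, and 3 of the 6 prostate samples were under their floor. Among MEFs, Nog was highest in FS017 and FS018 (8.10 and 8.13), the pair in which Grem1 was lowest. The same pair had the highest summed level of 6 cartilage and bone markers, 14.32 and 14.25 against 12.80 to 13.09 in the other 4 MEF samples, and the highest Col2a1, the collagen of cartilage, at 13.70 and 13.59. The part of cartilage cells in these levels was not tested. The grafts had Nog at 6.46 in FS002, 6.04 in FS003, 7.01 in FS005, 6.94 in FS007 and 8.07 in FS008, all above the highest prostate sample and all inside the range of the MEFs. The grafts exceeded prostate in Nog by a log2 difference of 4.54 ± 0.60 (SE, limma adjusted p = 8.03e-05, exact permutation p = 0.004329), the largest difference of the 9 genes between grafts and prostate. Against MEFs the difference was 0.24 with a 95% interval from -1.04 to 1.52 (limma adjusted p = 0.729), which leaves room for a change in either direction, and its sign turned without FS008 (-0.05). The values of FS022 and FS023 were 5.88 and 7.32.

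Chrd encodes Chordin, a large secreted BMP-binding protein that is cut by tolloid proteases, and lies on chromosome 16 from 20733200 to 20742457 on the plus strand. It differed least between groups among the antagonists, with means of 7.69 ± 0.46 in MEFs, 7.04 ± 0.25 in prostate and 8.27 ± 1.18 in the grafts (SD, n = 6, 6 and 5). The graft values were 7.35 in FS002, 7.14 in FS003, 8.10 in FS005, 10.08 in FS007 and 8.70 in FS008. FS007 stood highest and FS003 lay inside the range of prostate, which ran from 6.64 to 7.32. Chrd passed the threshold against prostate with a log2 difference of 1.23 ± 0.45 (SE, limma adjusted p = 0.0341), and the exact permutation p was 0.01732. This call rested on single grafts, since Chrd no longer passed without FS007 (0.78, under the minimum fold), without FS005 (1.28, limma adjusted p = 0.0506) or without FS008 (1.13, limma adjusted p = 0.0669), and without both FS007 and FS008 the difference was 0.49 (limma adjusted p = 0.0779). Without the 3 grafts richest in kidney transcripts it was 1.57 (limma adjusted p = 0.0621), and under quantile normalization 0.51 (limma adjusted p = 0.467). Against MEFs the difference was 0.59 (95% interval -0.45 to 1.62, limma adjusted p = 0.291). Exons of Chrd overlap those of Thpo on the opposite strand, and because the library kit does not mark strand, reads in the overlap could come from either gene. FS022 and FS023 had Chrd at 7.74 and 7.03.

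Fst encodes Follistatin, which binds activins most tightly and also BMPs, and lies on chromosome 13 from 115242470 to 115249159 on the minus strand. Its lowest, median and highest log2 values were 9.94, 11.22 and 11.37 in MEFs and 9.05, 9.43 and 9.57 in prostate. The grafts had 8.77 in FS002, 8.42 in FS003, 8.18 in FS005, 7.41 in FS007 and 6.13 in FS008, all below every prostate sample and every MEF sample. Fst was thus the antagonist for which the grafts lay outside the range spanned by MEFs and prostate. The log2 difference was -3.07 ± 0.46 (SE, limma adjusted p = 0.000155) from MEFs and -1.58 ± 0.39 (SE, limma adjusted p = 0.00552) from prostate, each with an exact permutation p = 0.004329. FS007 and FS008 were lowest, and without them the difference from prostate was -0.90 (limma adjusted p = 0.000766), under the minimum fold. FS023 had 7.84 and FS022 had 10.55, above all iEpt+NAF grafts and prostates and inside the range of MEFs.

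Sostdc1 encodes a secreted antagonist of BMPs that also binds Wnt co-receptors and is known to be abundant in the distal tubules of the kidney, and lies on chromosome 12 from 37040756 to 37045039 on the plus strand. Its lowest, median and highest log2 values were 0.81, 2.45 and 2.89 in MEFs, where 4 of 6 samples were above the floor, and 3.81, 4.87 and 5.85 in prostate. The grafts had 8.71 in FS002, 6.38 in FS003, 7.62 in FS005, 4.69 in FS007 and 8.36 in FS008. All grafts were above all MEFs, and 4 of 5 were above all prostates. The log2 difference was 4.95 ± 0.72 (SE, limma adjusted p = 0.000116, exact permutation p = 0.004329) from MEFs and 2.24 ± 0.68 (SE, limma adjusted p = 0.0152, exact permutation p = 0.02165) from prostate. The 3 highest grafts were the 3 with the most kidney transcripts, in which the summed level of 8 kidney markers was 16.40 in FS002, 17.43 in FS005 and 17.37 in FS008, against 10.34 in FS003 and 12.85 in FS007. In the grafts, 7 of the 8 kidney markers were above the floor in every sample, while in prostate the sum was 3.02 to 6.76 with 3 of the 8, Umod and Slc12a1 among them, at the floor in every sample. Without FS002, FS005 and FS008 the difference of Sostdc1 from prostate was 0.62 and did not pass (limma adjusted p = 0.441), while that from MEFs was 3.33 (limma adjusted p = 0.00621). Since these 3 grafts also held the highest Sostdc1, leaving them out had to lower both differences, and only FS003 and FS007 remained. Under quantile normalization the difference from prostate was 1.25 (limma adjusted p = 0.145). The same order held in the second table, with Sostdc1 at 9.85 and kidney markers at 15.23 in FS022, and 6.69 and 11.53 in FS023. The part of kidney tissue in the Sostdc1 level of the grafts was not tested.

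**Figure D2:**
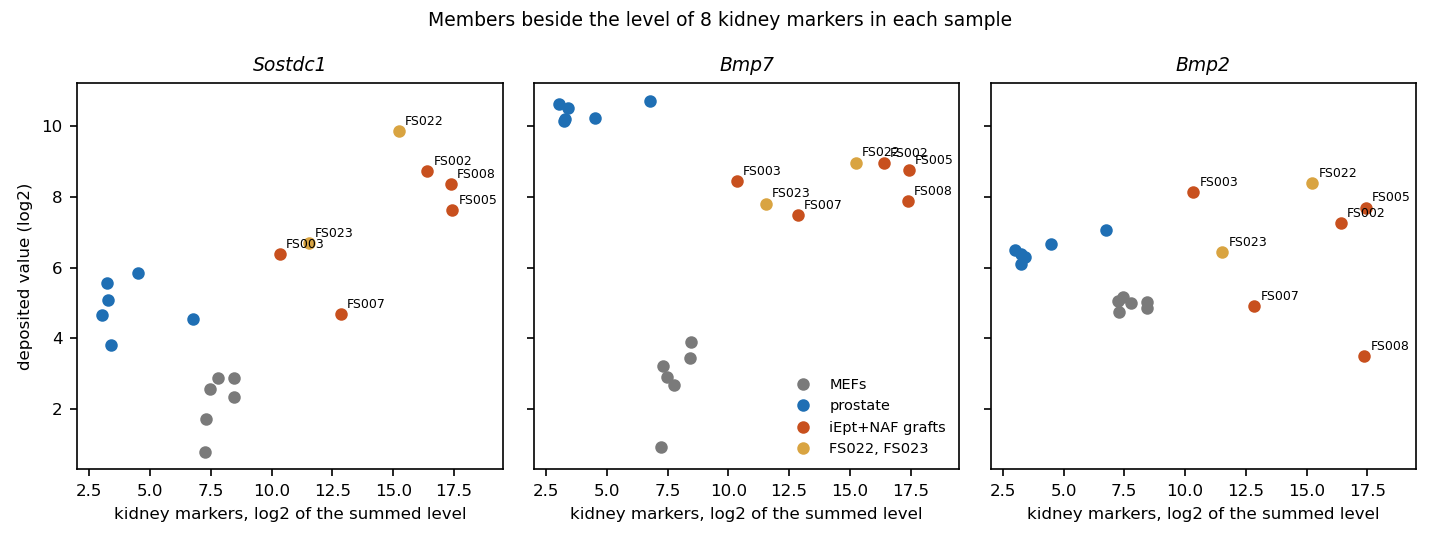
Deposited log2 value of Sostdc1, Bmp7 and Bmp2 (y axes) against the log2 of the summed level of 8 kidney markers (x axes) in every sample, with the grafts named. FS002, FS005 and FS008 hold the most kidney transcripts and the highest Sostdc1 of the iEpt+NAF grafts, while Bmp2 is lowest in FS008 (3.50).

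Among the ligands, Bmp7 had the largest contrast between tissues, and its order was the reverse of that of Grem1. Bmp7 lies on chromosome 2 from 172693513 to 172765822 on the minus strand, and is known to be made by prostate and kidney epithelium and mesenchyme. In prostate its lowest, median and highest log2 values were 10.12, 10.37 and 10.71, and in MEFs 0.94, 3.07 and 3.91, a difference of means, prostate minus MEFs, of 7.54. The grafts had 8.94 in FS002, 8.44 in FS003, 8.75 in FS005, 7.48 in FS007 and 7.87 in FS008, above every MEF and below every prostate. The log2 difference was 5.44 ± 0.51 (SE, limma adjusted p = 4.88e-06) from MEFs and -2.10 ± 0.25 (SE, limma adjusted p = 3.77e-05) from prostate, each with an exact permutation p = 0.004329. Without the 3 grafts richest in kidney transcripts the difference from prostate was -2.43 (limma adjusted p = 0.000169). FS022 and FS023, with 8.96 and 7.80, lay close to the iEpt+NAF grafts.

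Bmp4, a ligand of mesenchyme that restrains prostatic budding, lies on chromosome 14 from 47003195 to 47010344 on the minus strand, and 1 annotated gene, Gm15217, overlaps its exons on the opposite strand. Its lowest, median and highest log2 values were 9.52, 10.82 and 11.31 in MEFs and 7.34, 7.65 and 8.16 in prostate. Within MEFs, Bmp4 was lowest in FS015 and FS020 (9.52 and 9.61) and highest in FS017 and FS018 (11.31 and 11.21). The grafts had 7.98 in FS002, 7.84 in FS003, 8.11 in FS005, 8.31 in FS007 and 9.16 in FS008, all below the MEFs. The log2 difference from MEFs was -2.27 ± 0.37 (SE, limma adjusted p = 0.000296, exact permutation p = 0.004329). From prostate it was 0.60 with a 95% interval from 0.09 to 1.11 (limma adjusted p = 0.0472), under the minimum fold of 1 on the log2 scale, and the groups overlapped. FS022 and FS023 had 8.68 and 7.58.

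Bmp2, a ligand close to Bmp4 in sequence, lies on chromosome 2 from 133377895 to 133388621 on the plus strand, and divided the grafts. It was 7.25 in FS002, 8.12 in FS003 and 7.69 in FS005, above every prostate sample (6.10 to 7.05), but 4.92 in FS007 and 3.50 in FS008. The value of FS008 was below every MEF sample (4.74 to 5.18) and that of FS007 lay among them. Over the 5 grafts Bmp2 therefore did not pass, with a log2 difference of 1.32 from MEFs (95% interval -0.31 to 2.96, limma adjusted p = 0.137) and -0.20 from prostate (95% interval -1.82 to 1.42, limma adjusted p = 0.832). Without FS007 and FS008 it was higher in the remaining 3 grafts than in MEFs by 2.71 (limma adjusted p = 7.34e-06) and than in prostate by 1.19 (limma adjusted p = 0.00144). Without FS008 alone it was higher than in MEFs by 2.02 (limma adjusted p = 0.00695). FS007 and FS008 held the lowest Bmp2 values, so leaving them out had to raise these differences, and the p-values give no support. These grafts stand apart over the whole transcriptome, and what sets them apart was not tested. Within MEFs Bmp2 was the steadiest of the 9 genes, with a mean of 4.98 ± 0.16 (SD, n = 6). FS022 and FS023 had 8.39 and 6.44.

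Bambi encodes a transmembrane protein that resembles a type I receptor without a kinase and damps BMP and TGF-beta signalling, and its gene is itself a known BMP target. It varied least, with means of 8.30 ± 0.26 in MEFs, 7.62 ± 0.12 in prostate and 8.10 ± 0.38 in the grafts (SD, n = 6, 6 and 5). The graft values were 7.83 in FS002, 8.38 in FS003, 7.61 in FS005, 8.15 in FS007 and 8.53 in FS008, across the ranges of both other groups. The log2 difference was -0.21 from MEFs (95% interval -0.62 to 0.21, limma adjusted p = 0.357). From prostate it was 0.48 (95% interval 0.11 to 0.85, limma adjusted p = 0.0322), under the minimum fold. FS022 had 8.65 and FS023 had 7.58.

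**Figure D3:**
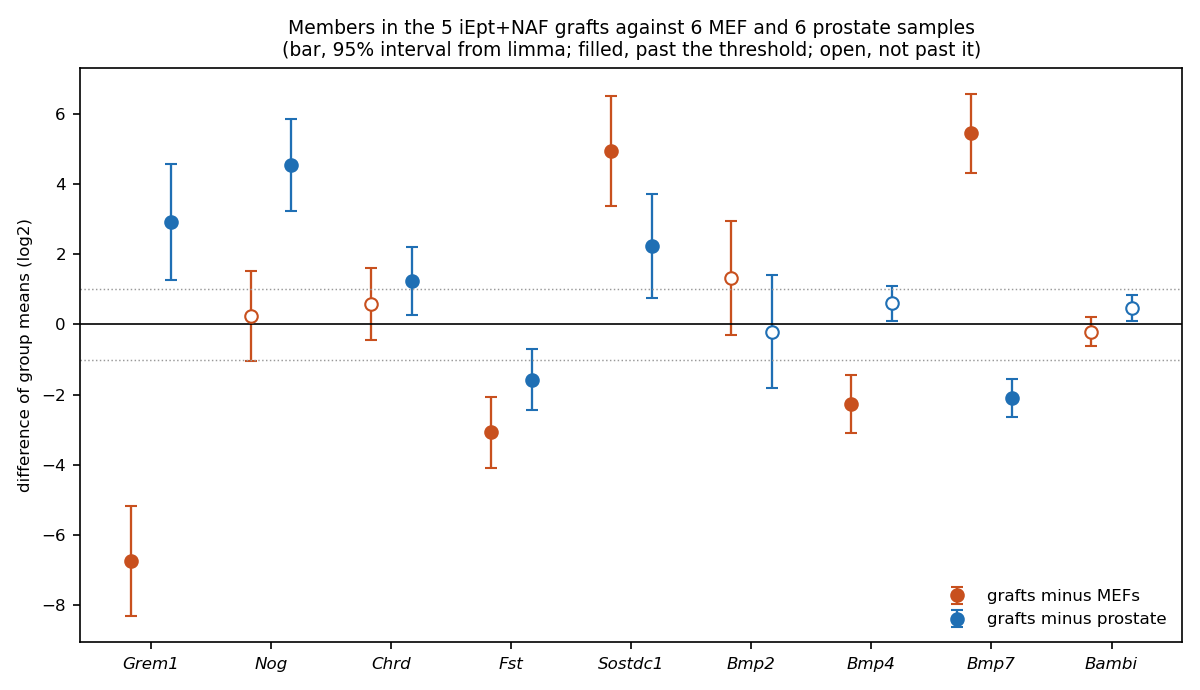
Difference of group means on the log2 scale (y axis) for the 9 genes (x axis), grafts minus MEFs in orange and grafts minus prostate in blue, with 95% intervals from limma and filled points for genes past the threshold. Grem1 is lower than in MEFs (-6.74) and higher than in prostate (2.93), Bmp7 is the reverse (5.44 and -2.10), and Fst is lower than in both (-3.07 and -1.58).

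Over the 9 genes, 5 passed the threshold between grafts and MEFs (an adjusted p under 0.05 with limma and a log2 difference of at least 1), of which Sostdc1 and Bmp7 were higher in the grafts and Grem1, Fst and Bmp4 lower. With the close MEF pairs averaged these 5 passed again, with limma adjusted p from 0.000165 (Bmp7) to 0.00419 (Fst). Their exact permutation p over 5 grafts and 3 pairs was 0.03571, the smallest it can give. Of all 16121 genes tested, 41.9% passed, 29.9% higher and 12.0% lower, and 47.3% had groups that did not overlap, as had 5 of the 9. With the pairs averaged, 5778 of all 16332 genes passed, 4124 higher and 1654 lower. Between grafts and prostate, 6 of the 9 passed, with Grem1, Nog, Chrd and Sostdc1 higher in the grafts and Fst and Bmp7 lower. The background there was 33.3% of 16353 genes, 23.0% higher and 10.3% lower, and 37.2% had groups that did not overlap, as had 3 of the 9 (Nog, Fst and Bmp7). Between prostate and MEFs, 48.3% of 14560 genes passed, 27.8% higher and 20.5% lower in prostate, and 66.7% did not overlap. All of the 9 but Chrd did not overlap there, which is not read as a result since the list was led by that contrast. With quantile normalization the balance of all genes turned, from 4815 higher and 1942 lower to 2556 and 3724 between grafts and MEFs, from 3757 and 1683 to 2342 and 3058 between grafts and prostate, and from 4044 and 2982 to 3344 and 3567 between prostate and MEFs. Its median over all genes was -0.19, -0.13 and -0.01 in these comparisons, against 0.26, 0.11 and 0.17 as deposited. The grafts share their MEF and prostate samples with the contrast that led to the list, so the calls of the 9 genes are not independent of that choice. In bulk tissue fewer cells of a type and less RNA per cell cannot be told apart.

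To set ligands beside antagonists, the estimated normalized reads per kb were summed over Bmp2, Bmp4 and Bmp7 and over the 5 secreted antagonists in each sample. In MEFs the antagonists exceeded the ligands in all 6 samples, with a median ratio of 2.83 and a range from 1.15 to 3.15. In prostate the ligands exceeded the antagonists in all 6 samples, with a median ratio of 0.634 and a range from 0.481 to 0.845. The iEpt+NAF grafts all lay above the prostates and overlapped with the MEFs, with ratios of 1.77 in FS002, 0.894 in FS003, 1.17 in FS005, 1.68 in FS007 and 1.36 in FS008. The antagonist that contributed most changed with the group. It was Grem1 in 4 MEF samples and Fst in FS017 and FS018, where the ratio was lowest, Fst in all 6 prostates with 79.2% to 88.6% of the sum, and in the grafts Sostdc1 (FS002, FS005 and FS008), Fst (FS003) or Chrd (FS007). FS022 and FS023 had ratios of 2.90 and 1.56, with Fst as the largest antagonist in both. The sums weight each transcript equally and take no account of protein or affinity, and they include the genes that led to the list, so no test was made.

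**Figure D4:**
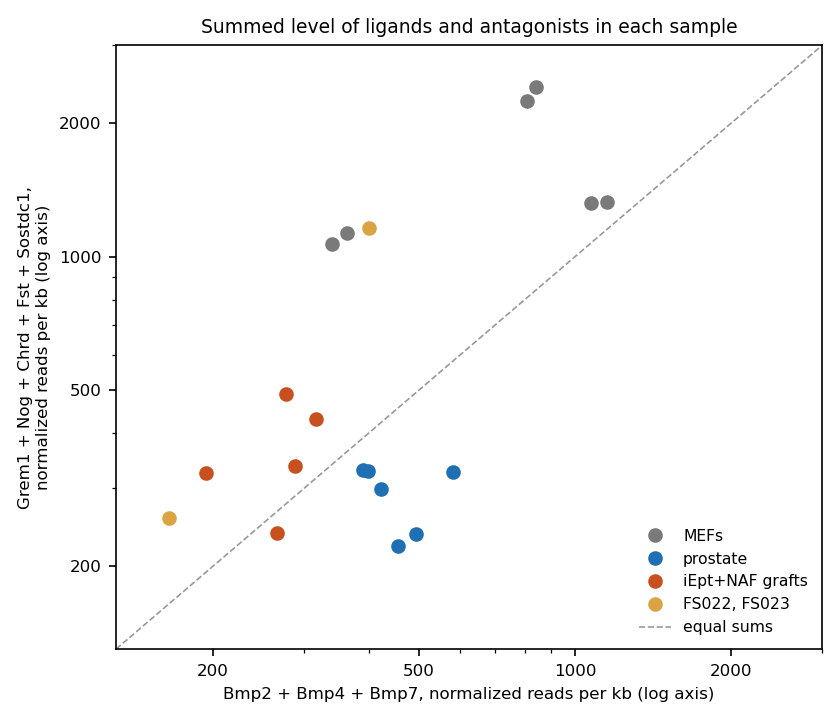
Summed level of 5 secreted antagonists (y axis) against that of 3 ligands (x axis), both as estimated normalized reads per kb of exon on log axes, with 1 point for each sample and a dashed line where the sums are equal. All MEFs lie above the line and all prostates below it, with ratios of 1.15 to 3.15 and 0.481 to 0.845.

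The rest of the pathway was described through 55 further genes in 5 lists. Between grafts and MEFs 23 of the 49 tested passed (46.9%), 6 higher and 17 lower, with a median log2 difference of -0.58 against 0.26 over all genes. Between grafts and prostate 15 of 51 passed (29.4%), 7 higher and 8 lower, with a median of 0.11, equal to that of all genes. Between prostate and MEFs 27 of 49 passed (55.1%), 8 higher and 19 lower in prostate, with a median of -0.67 against 0.17. With both directions counted together these shares lie near the backgrounds given above, but by direction they differ from them on the deposited scale. Between grafts and MEFs 34.7% of the tested pathway genes were lower and 12.2% higher, against 12.0% and 29.9% of all genes. Between prostate and MEFs 38.8% were lower in prostate and 16.3% higher, against 20.5% and 27.8% of all genes. Between grafts and prostate 15.7% were lower in the grafts and 13.7% higher, against 10.3% and 23.0%, shares that rest on only 8 and 7 genes. The balance of all genes by direction turned under quantile normalization, where pathway shares by direction are not given, so these contrasts depend on the scaling and were not tested. Without MEFs FS015 to FS018 the count between grafts and MEFs was 15 in place of 23. With the close MEF pairs averaged, Cer1, Crim1, Acvr1, Hfe2, Id3 and Atoh8 of these 23 no longer passed. Fewer of all genes passed as well (5778 of 16332), so the shares above hold for the 6 MEF samples taken singly.

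Of the 12 other ligands, 9 were tested between grafts and MEFs, and Bmp6 rose while Gdf6 fell. Bmp6, a close relative of Bmp7 that is known for its control of iron through hepcidin, was 8.55 in FS002, 6.36 in FS003, 8.33 in FS005, 11.95 in FS007 and 11.86 in FS008, against 3.78 to 5.85 in MEFs and 4.01 to 5.20 in prostate. It was thus highest in the same grafts in which Bmp2 was lowest. The log2 difference was 4.38 from MEFs (limma adjusted p = 0.00205) and 4.79 from prostate (limma adjusted p = 0.000912), and the former did not pass under quantile normalization (2.96, limma adjusted p = 0.0501) or without MEFs FS015 to FS018 (4.65, limma adjusted p = 0.0594). Gdf6, a ligand of joints and skull, had a mean of 8.90 ± 1.81 (SD, n = 6) in MEFs and 3.63 ± 1.32 (SD, n = 5) in the grafts, and its difference of -5.26 passed (limma adjusted p = 0.000335), as did that between prostate and MEFs (-8.14, limma adjusted p = 4.91e-06). Only 2 of the 6 prostate samples were above the floor for Gdf6, so the size of the latter difference is not a bound on the change. Gdf7 passed as lower in the grafts than in prostate (-5.18, limma adjusted p = 0.000275) and higher in prostate than in MEFs (3.18, limma adjusted p = 2.72e-06). Only 3 of the 5 grafts were above the floor for Gdf7. Between grafts and prostate Gdf10 (-2.35) and Bmp8b (-1.33) were also lower and Bmp8a (1.70) higher, and each of these 3 lost its call under at least 1 alternative. Gdf10 did not pass without FS008 (-1.92, limma adjusted p = 0.0547) or without FS002, FS005 and FS008 (-2.42, limma adjusted p = 0.0681), and was -0.97 without FS007 and FS008 (limma adjusted p = 0.0896). Bmp8b was -0.85 without FS002, FS005 and FS008 (limma adjusted p = 0.242), and with all 17 samples in the fit neither Gdf10 (limma adjusted p = 0.0637) nor Bmp8b (limma adjusted p = 0.0995) passed. Bmp8a turned under quantile normalization (-0.37). Between prostate and MEFs Bmp5 (-3.24), Gdf5 (-2.72) and Bmp8a (-1.93) were lower.

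Of 13 other secreted modulators tested between grafts and MEFs, 7 fell and 1 rose. The largest fall was that of Tll1, a tolloid protease that cuts Chordin, with -6.04 (limma adjusted p = 2.18e-06). Tll1 stood at 11.30 ± 1.04 in MEFs, 5.04 ± 0.35 in prostate and 5.26 ± 0.75 in the grafts (SD, n = 6, 6 and 5). Fstl1, a follistatin-like glycoprotein, fell by 3.87, and Fstl3 and Bmper, a BMP-binding protein of endothelium and mesenchyme, had differences of -3.16 and -3.05. Crim1 also passed as lower (-1.21), but lost its call under several alternatives, among them the close MEF pairs averaged (limma adjusted p = 0.0876). Cer1, a DAN family antagonist of early endoderm, passed as higher (4.59, limma adjusted p = 0.0262), but it was found only in FS002, FS003 and FS005 (5.98, 5.63 and 8.32), was under the floor in FS007, FS008 and every MEF and prostate sample, and no longer passed without FS002, FS003 or FS005 (lowest 3.44, limma adjusted p = 0.0686), under quantile normalization (2.23, limma adjusted p = 0.184), without MEFs FS015 to FS018 (limma adjusted p = 0.183) or with the close MEF pairs averaged (limma adjusted p = 0.115). With every MEF under the floor, neither this difference nor that of Hfe2 below is a bound on the change. Between grafts and prostate 5 of 16 passed, and the largest difference among these 5 was that of Chrdl1, a chordin-like antagonist, at -3.05 (limma adjusted p = 1.32e-06). Its level was 10.53 ± 0.35 (SD, n = 6) in prostate, against 7.47 ± 0.43 (SD, n = 5) in the grafts. Tll2 was also lower (-2.73), but only 2 of the 5 grafts were above the floor for it, so this size is not a bound on the change. Bmper (1.88) and Crim1 (1.53), which tethers BMPs at the cell surface, were higher in the grafts. Bmper did not pass under quantile normalization (0.86), and Crim1 fell to 0.85, under the minimum fold, without FS007 and FS008. Between prostate and MEFs 11 of 14 passed, 4 of them higher in prostate (Chrdl2 4.38, Chrdl1 3.83, Sost 3.46 and Dand5 1.40) and 7 lower, among them Tll1 (-6.26), Bmper (-4.92) and Fstl1 (-3.53). Chrdl2 and Sost were under the floor in every MEF sample, so the sizes of their differences are not bounds on the change. Under quantile normalization the difference of Dand5 was 0.82, under the minimum fold.

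Of 11 receptors and co-receptors, 5 passed between grafts and MEFs. Hfe2, the co-receptor hemojuvelin of liver and skeletal muscle, had the largest difference (5.75, limma adjusted p = 0.00715), from 9.15, 8.56 and 9.08 in FS002, FS003 and FS005 and 1.29 and 1.53, under the floor, in FS007 and FS008. It did not pass with the close MEF pairs averaged (limma adjusted p = 0.0557) or without MEFs FS015 to FS018 (limma adjusted p = 0.171). The summed level of 4 skeletal muscle markers was 15.79, 14.94 and 15.21 in FS002, FS003 and FS005, against 12.08 in FS007 and 10.12 in FS008. FS022 and FS023 had sums of 16.20 and 12.52, with Hfe2 in the reverse order at 5.31 and 6.96. In prostate the sum was 12.39 to 13.25. The part of muscle in the Hfe2 level was not tested. Acvr2b, a type II receptor, was higher (2.25, limma adjusted p = 9.73e-05), although its sign turned under quantile normalization (-0.14), and Rgma, a co-receptor, was higher (1.70). Bmpr2, the type II receptor of BMPs, was lower (-1.61, limma adjusted p = 8.09e-06). Acvr1 was also lower (-1.12), but lost its call under several alternatives, among them the close MEF pairs averaged (limma adjusted p = 0.0539). Bmpr1b, a type I receptor, separated prostate from both other groups, at 12.00 ± 0.36 in prostate, 8.62 ± 0.35 in MEFs and 8.26 ± 0.61 in the grafts (SD, n = 6, 6 and 5). Its log2 difference was 3.38 between prostate and MEFs (limma adjusted p = 2.36e-09) and -3.74 between grafts and prostate (limma adjusted p = 1.32e-06). Hfe2 (5.20) and Rgma (2.38) stood higher in the grafts than in prostate, of which Hfe2 did not pass without FS002, without FS005, or without FS002, FS005 and FS008 (limma adjusted p = 0.0527, 0.0528 and 0.0968), and between prostate and MEFs Acvr1 (-1.69) and Bmpr2 (-1.58) were lower and Acvr2b (1.33) higher, the latter not passing under quantile normalization (0.19, limma adjusted p = 0.589).

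Of 8 intracellular transducers and inhibitors, 5 were lower in the grafts than in MEFs and 0 higher. They were Smad6 (-2.05), an inhibitory SMAD, Smad9 (-1.84), Smad7 (-1.27), the ubiquitin ligase Smurf1 (-1.23) and its relative Smurf2 (-1.05). Without MEFs FS015 to FS018 neither Smad6 nor Smad9 passed (limma adjusted p = 0.0583 and 0.141), and Smurf2 was under the minimum fold, at -0.84. Smurf2 was also under it with quantile normalization (-0.83) and without FS002, FS005 and FS008 (-0.94). Smad9, the third BMP transducer, was also the 1 gene of this list that passed between grafts and prostate (-2.08, limma adjusted p = 0.00107), and between prostate and MEFs Smurf1 (-1.84), Smad6 (-1.77) and Smurf2 (-1.16) were lower in prostate, with Smurf2 at -0.95, under the minimum fold, without MEFs FS015 to FS018.

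Of 8 known targets of BMP signalling, Id2 rose and Id3 and Atoh8 fell between grafts and MEFs, so the list did not move one way. Id2, an inhibitor of basic helix-loop-helix factors, was 10.82 to 12.42 in the grafts, 9.82 to 10.37 in prostate and 9.24 to 10.01 in MEFs, with log2 differences of 1.69 from MEFs (limma adjusted p = 0.000256) and 1.31 from prostate (limma adjusted p = 0.000978). It was the 1 target of 8 that passed between grafts and prostate, and without FS007 and FS008 that difference was 0.95. Id3 (-1.43) and Atoh8 (-2.10) did not pass with the close MEF pairs averaged (limma adjusted p = 0.0587 and 0.0517), without MEFs FS015 to FS018 (limma adjusted p = 0.164 and 0.196) or without FS007 and FS008 (limma adjusted p = 0.0658 and 0.110), and Atoh8 did not pass without FS002, FS005 and FS008 (limma adjusted p = 0.0957). Between prostate and MEFs Msx2 (-2.03), Atoh8 (-1.67) and Msx1 (-1.23) were lower in prostate and Id4 (1.21) higher, and Atoh8 did not pass without MEFs FS015 to FS018 (-1.03, limma adjusted p = 0.0797). Id1, the most used reporter gene of the pathway, is added here after its values were seen, and passed in none of the 3 comparisons, with log2 differences of -0.10, 0.81 and -0.91 (limma adjusted p = 0.880, 0.130 and 0.0355, the last under the minimum fold).

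**Figure D5:**
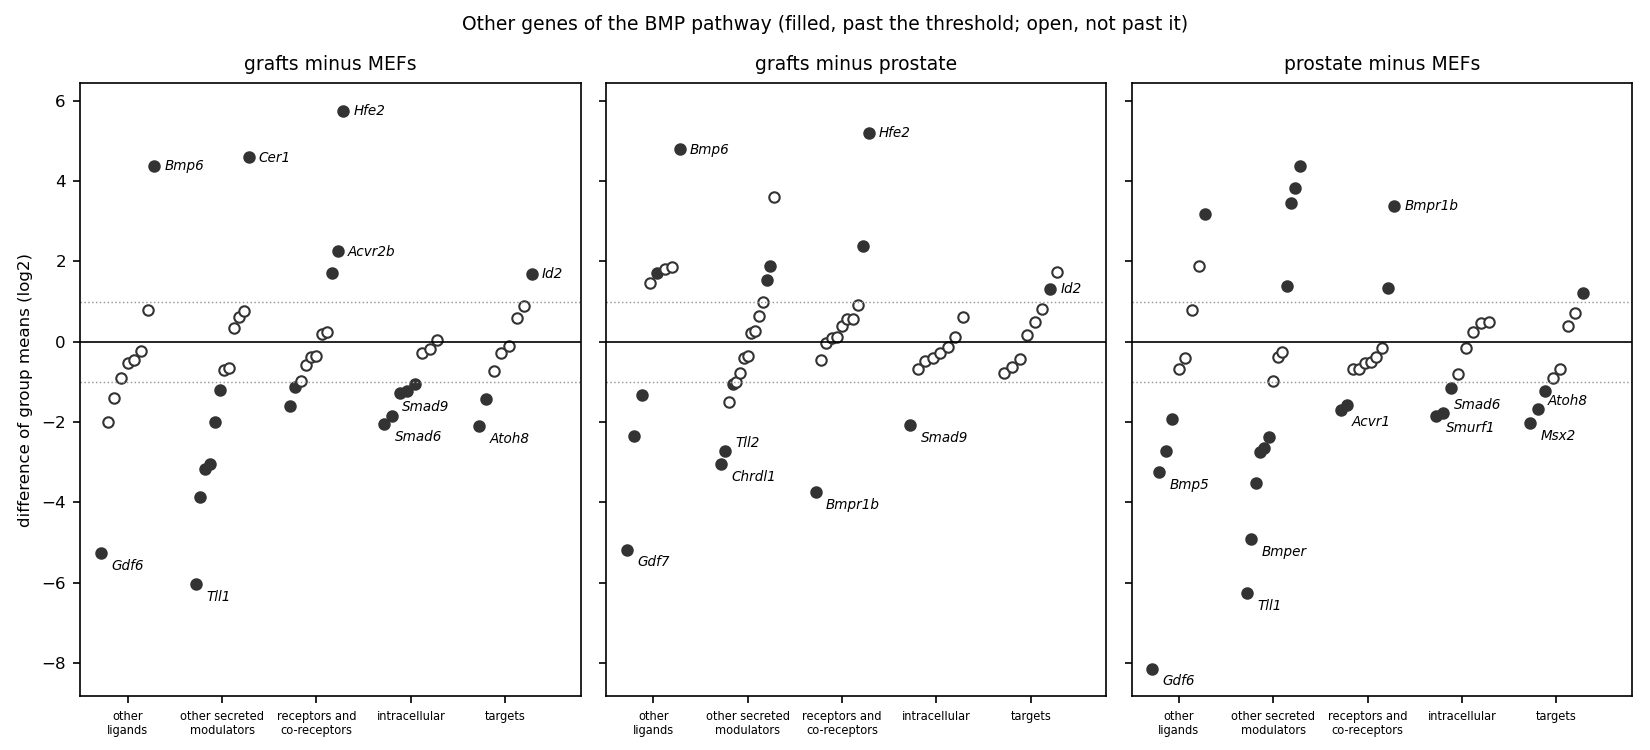
Difference of group means on the log2 scale (y axis) for other genes of the BMP pathway in 5 lists (x axis) in the 3 comparisons, where a point is a gene (1 tested secreted modulator is not drawn), filled when past the threshold, and up to 2 genes that passed are named in each list. Tll1 has the largest fall among secreted modulators (-6.04 between grafts and MEFs), and Bmp6 lies at 4.38 and 4.79 in the grafts.

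The genes whose pattern was most like that of Grem1 were taken by the Pearson correlation of log2 values over the 17 samples of the first table, among 16101 genes. They were Hhat (0.988), Grlf1 (0.984), AI480653 (0.983), Epb4.1l2 (0.982) and Msn (0.982), each highest in MEFs, lowest in prostate and between them in the grafts. For Msn, which encodes the membrane-cytoskeleton linker moesin, the group means were 14.90, 10.17 and 11.65 in MEFs, prostate and grafts. The nearest pattern was that of Syt12 for Nog (0.963), Acad9 for Chrd (0.918), Epb4.1l1 for Fst (0.970), Hpn for Sostdc1 (0.950), Sgca for Bmp2 (0.969), Lats2 for Bmp4 (0.977), Amt for Bmp7 (0.992) and Eps15 for Bambi (0.913). Among the 9 genes themselves, Grem1 followed Bmp4 (0.86) and ran opposite to Bmp7 (-0.95), and Fst ran opposite to Sostdc1 (-0.81). These correlations describe 17 samples in 3 groups and largely follow the group means.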

How the data were processed

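RNA was sequenced from MEFs, prostate and renal grafts with the Illumina TruSeq RNA kit, which does not mark strand. Per the labels, the authors' processing notes name bcl2fastq 1.8.4, TopHat, Cufflinks and DESeq and the build mm9, and the authors normalized raw counts with DESeq and deposited log2 values in 2 tables of 23284 genes (17 and 2 samples). The transformation is not given in the sources used here. Values from 11.5 to 15 equalled log2 of a whole number of reads (within 0.1 read) times a constant plus 1.61, the form of a variance-stabilizing transformation with -0.31 at 0 reads, from which depth, floors and normalized reads were estimated. Lower values carry added scatter, which hid the whole reads of most genes.

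The deposited values were tested with limma 3.58.1 in R 4.3.3 (lmFit, eBayes with trend) over the samples of each pair of groups and genes with a mean linear value of at least 10. The threshold was an adjusted p under 0.05 (Benjamini-Hochberg, over all genes) together with an absolute log2 difference of at least 1. The fits were tested on simulated data. Exact two-sided permutation tests used scipy 1.17.1 in Python 3.11.15 (numpy 2.4.6, pandas 2.3.3, matplotlib 3.10.9). Gene positions and exon lengths come from GENCODE M1 (mm9). The 9 genes and all lists were chosen with earlier results of these data known. Named were the 9 genes, of each list at most the 4 genes per comparison with the largest change that passed (others of these lists are named after their values were seen), and the nearest patterns. Alternatives changed the filter, the pseudocount, the scaling, the samples and the minimum fold. Averaging the close MEF pairs and leaving out FS002, FS005 and FS008, or FS007 and FS008, were added after the data were seen. Results of some genes are not reported here.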

Additional observations from a re-analysis of the deposited data

Results flagged for a closer look

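A sample was marked when its gap to the nearest other sample of its group, relative to the range of the group, passed Dixon's 95% critical value, which chance does in about 1 of 20 groups. Of 136 sets of values of the 9 genes and of the pathway genes that passed in at least 1 comparison, 5 were marked, against 6.8 at a rate of 1 in 20. That rate assumes independent samples. The close MEF pairs leave most extreme MEF samples with a near neighbour, so MEF sets could hardly be marked, and none was. The 2 counts are therefore not a test. Grem1 was lowest in prostate FS009 at -0.14, with the other prostates at 1.55 to 2.55, and all but 1 of these values are under the value of 3 reads (2.34 in FS009). Bmp8b was lowest in the same prostate, at 4.51 against 6.41 to 6.81, and Id4 was highest in it, at 9.78 against 8.94 to 9.16. FS009 was also the prostate with the highest Kap, at 6.12. Bmp8a was highest in graft FS008, at 6.34 against 3.66 to 4.41, and Tll2 was lowest there, at -1.93 against 1.64 to 2.54, under its floor of 2.05.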

How the results depend on the processing

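Depth limits Grem1 and Nog in prostate and Sostdc1 and Bmp7 in MEFs, where values lie near 3 reads, and FS022 and FS023 are the shallowest libraries. Without a minimum fold, 10573 genes passed between grafts and MEFs, 9093 between grafts and prostate and 11772 between prostate and MEFs, against 6757, 5440 and 7026. Of the wider pathway genes, 15 in place of 23 passed between grafts and MEFs without MEFs FS015 to FS018. Of the 9 genes, 3 in place of 6 passed between grafts and prostate under quantile normalization, and 3 without FS002, FS005 and FS008, where Grem1 fell under the filter on low values. Between grafts and MEFs, quantile normalization turned the sign of Nog (-1.43), Chrd (-0.36), Bmp2 (-0.28) and Acvr2b (-0.14), leaving out FS002, FS005 and FS008 that of Nog (-0.17), and leaving out FS007 and FS008 those of Nog (-0.16) and Chrd (-0.15). Between grafts and prostate, quantile normalization turned Bambi (-0.02) and Bmp8a (-0.37), and Bmp2 turned without FS002, FS005 and FS008 (0.02) and without FS007 and FS008 (1.19). Leaving out each graft in turn gave -0.05 to 0.46 for Nog between grafts and MEFs and -0.66 to 0.50 for Bmp2 between grafts and prostate, each with a change of sign. The cause was not tested. Over these grafts left out in turn, 5 to 6 of the 9 genes passed in each graft comparison, and 6370 to 6858 and 5051 to 5843 of all genes. No paired analysis was possible because the labels give the samples no replicate numbers.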

Other observations

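Grafts FS007 and FS008 differed from FS002, FS003 and FS005 in several genes of the pathway at once, a comparison of samples that the labels do not divide and that was not tested. Cer1 was 5.98, 5.63 and 8.32 in FS002, FS003 and FS005 and -0.32 and -1.02 in FS007 and FS008. Hfe2 was 9.15, 8.56 and 9.08 in the former and 1.29 and 1.53 in the latter, and Col2a1, a cartilage collagen outside the pathway, was 9.14, 7.73 and 12.12 against 2.05 and 2.20. Bmp6 ran the other way, at 8.55, 6.36 and 8.33 against 11.95 and 11.86. In the second table, FS023 had Col2a1 at 7.03 and FS022 at -0.43, under its floor, and Cer1 was under the floor in both.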
